A study of Mus musculus with 7 samples.

Results

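The cytosolic ribosomal protein genes were followed through the cell types, preparations and treatment groups of the mouse hippocampus. Members were taken by symbol (Rpl or Rps with a number, plus *Rplp0*, *Rplp1*, *Rplp2* and *Rpsa*, without annotated pseudogenes), which gave 103 of the 55536 genes in the deposited gene table. Of these, 77 encode core proteins of the ribosome: 43 of the large subunit, 31 of the small subunit and 3 of the P-stalk. A further 9 are paralogues of core genes and 6 are other copies. The remaining 11 carry such symbols but encode no ribosomal protein (S6 kinases, their relatives and *Rps19bp1*), so they were counted apart and served as a contrast.

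The mice were 10 months old. Arctic48 (Arc) mice were hemizygous for a human *APP* transgene with the Swedish, Indiana and Arctic mutations and formed fibrillar plaques, and wild-type (WT) mice came from the same cross on the C57BL6/J background; the promoter of the transgene is not given in the sources used here. The drinking water held 20 µg/ml of PMX205, a cyclic peptide antagonist of the complement receptor C5aR1, or nothing (vehicle, veh), per the labels for 12 weeks. The ages given in the study's text for this cohort make a somewhat shorter span. Genotype and drink made 4 groups, written WT-veh and Arc-veh for vehicle and WT-PMX and Arc-PMX for PMX205, each with 3 female (F1 to F3) and 3 male (M1 to M3) wells per preparation. All mice, controls included, were perfused, per the labels with actinomycin D and triptolide, which block transcription, and per the study's methods with a buffer for which no inhibitor is named. Single cells (SC) were CD11b-selected after processing in a buffer with actinomycin D, triptolide and anisomycin, a blocker of translation, and each of their 24 wells pooled hippocampal tissue of 2 to 3 mice of 1 group and sex. Each of the 24 wells of single nuclei (SN) held 1 mouse. The tissue for nuclei had been frozen. Preparation therefore cannot be told apart from dissociation, inhibitors, freezing, pooling and selection.

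Transcripts were barcoded by split pooling, so that each of the 7 sequenced sublibraries held cells of all 48 wells. The sublibraries held between 56591324 and 66065789 transcripts, and 48969 of 1516119 barcodes passed the filters. Of 44442 barcode combinations, 4216 (9.49%) occurred in more than 1 sublibrary, and they were counted as separate cells. Cells were named from marker genes: 1822 single cells and 1504 nuclei were microglia, and a further 37.8% and 39.4% of the microglia-led cells of each preparation lay in clusters that were left unnamed. That share differed by group: in single cells it was 55.8% in WT-veh, 52.6% in WT-PMX, 31.0% in Arc-veh and 39.1% in Arc-PMX, and in nuclei 56.6%, 55.2%, 26.8% and 41.3%. Named microglia of both preparations had counts of all 10 microglial markers. The study left out a WT sample whose expression looked Arctic without naming its well, and in single-cell microglia 1 WT-veh well, F2, held 654 CPM (a gene's counts scaled to the total of the well and cell type) of the plaque-response genes *Cst7*, *Itgax*, *Spp1*, *Clec7a*, *Axl* and *Lpl* while the other WT-veh wells held 0; comparisons with that group are given with and without it. A second pair of wells stood apart. Arc-veh F1 and M2 held 53.5% of all single-cell microglia, 60.4% of their counts and 82.2% of their ribosomal protein counts.

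A ribosome is a small subunit, which reads the mRNA, joined to a large subunit, which forms the peptide bond and carries the exit tunnel and the P-stalk, where elongation factors dock. Its proteins are made in matched amounts in every cell, from short, highly transcribed genes whose mRNAs are long-lived and sit in the cytoplasm. Most of these mRNAs start with a run of pyrimidines behind a C, the 5′ terminal oligopyrimidine (TOP) tract, through which growth signals set their translation, and elongation factors carry the same tract.

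Start-site windows are shown for members at both ends of the comparison of single cells with nuclei, since the tract is the sequence feature the family is known for. Each runs from 10 bases before to 20 bases from the RefSeq start on the coding strand of GRCm38.p6, and capitals mark a C followed by at least 5 C or T bases.
Rps21: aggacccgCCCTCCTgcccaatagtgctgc
Rps12: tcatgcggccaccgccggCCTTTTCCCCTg
Rps23: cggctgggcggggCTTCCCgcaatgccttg
Rps28: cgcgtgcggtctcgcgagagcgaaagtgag
Rpl15: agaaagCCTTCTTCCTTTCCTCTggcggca
Rps6: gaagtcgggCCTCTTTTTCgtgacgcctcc
Rpl35: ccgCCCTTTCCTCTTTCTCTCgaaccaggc
Rps6kb1: gcgccggagctgaacttgaggagccagtct
The first 4 belong to members that were higher in single cells (chr2:180257369-180257398, plus strand, chr10:23787190-23787219, minus strand, chr13:90923112-90923141, plus strand, and chr17:33824543-33824572, minus strand). *Rpl15* (chr14:18270967-18270996, minus strand), *Rps6* (chr4:86857348-86857377, minus strand) and *Rpl35* (chr2:39005112-39005141, minus strand) were not called, and *Rps6kb1* (chr11:86544788-86544817, minus strand) is an S6 kinase. RefSeq starts were found for 57 of the 77 core genes, and 33 of them (57.9%) held such a tract in the window, against 6735 of 27025 genes (24.9%) with the same window. With the tract exactly at the annotated start, the shares were 19.3% and 2.05%. An annotated start can lie some bases from the base at which the mRNA begins, so a window without the tract says only that these letters are not in it.

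The share of counts that came from the 77 core genes differed by cell type and by preparation. In single-cell microglia the share was 0.227% ± 0.149 (SD, n = 17 wells), with a lowest well of 0.0563%, a median of 0.186% and a highest well of 0.602%. In microglial nuclei it was 0.0755% ± 0.0205 (n = 21), from 0.0426% over 0.0752% to 0.130%. Hence 12 of the 17 single-cell wells lay above every well of nuclei, with a ratio of means of 3.00, and without Arc-veh F1 and M2 this held for 10 of 15 wells with a ratio of 2.46. Endothelial cells gave 0.188% ± 0.157 (n = 9) as single cells and 0.0662% ± 0.0411 (n = 17) as nuclei, and 3 of the 9 wells lay above all nuclei. Pericytes gave 0.166% ± 0.114 (n = 7) and 0.0442% ± 0.0183 (n = 13), and all 7 wells of single cells lay above all 13 of nuclei. The single cells named pericytes also held many microglial and endothelial markers, as given below. Astrocytes gave 0.0666% ± 0.0352 (n = 5) and 0.0363% ± 0.0061 (n = 24), and ependymal or choroid plexus cells 0.0854% ± 0.0382 (n = 6) and 0.0440% ± 0.0084 (n = 19), ratios of 1.84 and 1.94. No test was run on these summed shares.

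**Figure D1:**
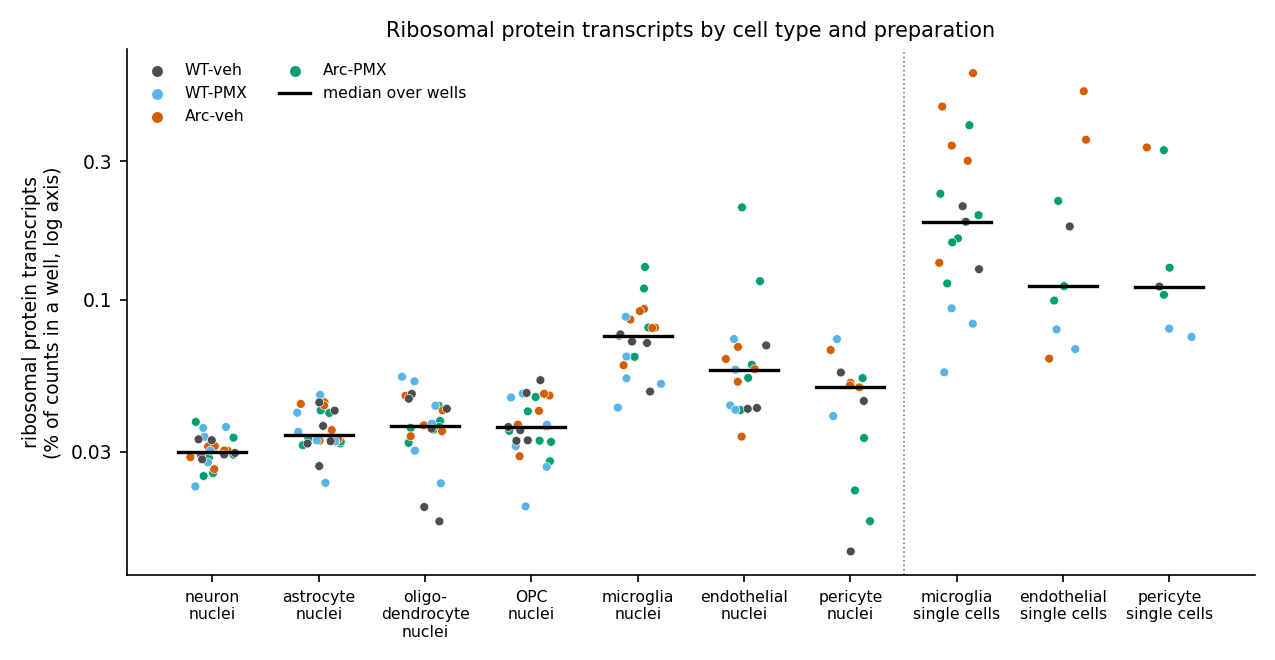
Share of all counts of a cell type in a well that came from the 77 core ribosomal protein genes (percent, log axis), for 7 cell types in nuclei and 3 in single cells, with 1 point per well coloured by group and a line at the median. Single-cell microglia reach 0.602%, nuclei of neurons stay between 0.0228% and 0.0380%, and microglial nuclei lie above the neurons of the same well in 21 of 21 wells.

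Among nuclei, microglia had the highest share of the 5 large classes. The share was 0.0303% ± 0.0037 in neurons, 0.0363% ± 0.0061 in astrocytes, 0.0376% ± 0.0091 in oligodendrocytes and 0.0376% ± 0.0082 in oligodendrocyte precursors (OPCs; n = 24 each). Microglia were above the neurons and above the astrocytes of the same well in 21 of 21 wells, and above oligodendrocytes and OPCs in 20 of 21. The last 3 classes overlapped widely. By gene, 59 of the 77 members had their highest mean CPM in microglia, 9 in OPCs, 5 in oligodendrocytes, 3 in neurons and 1 in astrocytes. Absolute counts gave another order, because a neuronal nucleus held 10202 counts and a microglial nucleus 1269: 2.99 core counts per neuronal nucleus, 1.01 per microglial nucleus, 0.944 per OPC, 0.791 per astrocyte and 0.531 per oligodendrocyte. Pooled single-cell microglia held 4.06 per cell, which rests on Arc-veh F1 and M2: over the 17 wells the mean was 1.94 ± 1.95 and the median 1.47, and over the 15 wells without those 2 the mean was 1.39 ± 0.80, below the median of 3.01 over the wells of neurons.

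Among the 4 neuronal subclasses that could be named, the share was highest in nuclei of dentate granule cells, the entry neurons of the hippocampal circuit. Their 0.0353% was above the 0.0269% of CA1 pyramidal neurons, the 0.0287% of CA3 pyramidal neurons and the 0.0309% of interneurons in 24 of 24 wells each. Per nucleus, granule cells came last, with 5.04 core counts in CA3, 3.38 in CA1, 2.99 in interneurons and 2.47 in granule cells. The neuronal clusters left unnamed were not compared.

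To test the members one by one, counts were summed per well and compared between preparations by edgeR's quasi-likelihood test with group and sex in the model. The usual filter on low counts kept 1038 genes of microglia and none of the members, whose counts over all wells ran from 4 to 302 in single cells (median 85) and from 1 to 83 in nuclei (median 16). The tests of members below therefore come from the fit without that filter, in which 19532 genes were tested. In it, 66 of the 77 core genes were higher in single cells and 0 were lower at an adjusted p of 0.05, against 3.9% of all genes tested that were higher. Their median log2 fold change was 2.08, and that of all genes was -0.12. The call held for 35 of 43 genes of the large subunit, 28 of 31 of the small subunit and 3 of 3 of the P-stalk.

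These counts rest in part on 2 wells. Without Arc-veh F1 and M2, 27 of 77 members were higher, 0 were lower and the median fell to 1.12. In that fit 1273 of 18719 genes were called in either direction, against 1413 of 19532 with all wells. With any 1 well left out, between 51 and 68 were called, DESeq2 called 48, and 66 were called without WT-veh F2. By plain ratio of mean CPM, 67 of 77 members were higher in single cells (median ratio 2.81), and 59 were so without the 2 wells (median 2.04).

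**Figure D2:**
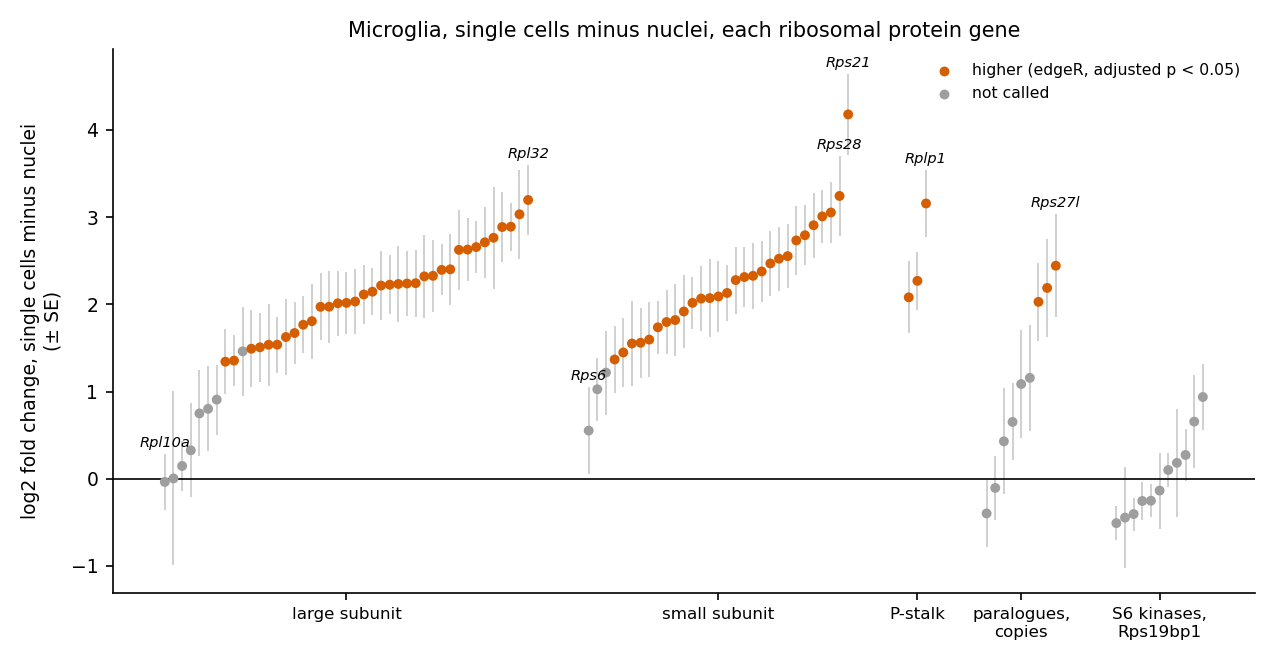
Log2 fold change of microglia, single cells minus nuclei, for each member with counts (points, with SE as bars), ordered within the large subunit, small subunit, P-stalk, paralogues or copies, and S6 kinases with Rps19bp1. Orange points were higher at an adjusted p under 0.05 (edgeR without the filter on low counts), which holds for 66 of the 77 core genes and for 0 of the 11 genes that encode no ribosomal protein.

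In the small subunit the largest difference was that of *Rps21* (chr2:180257377-180258445, GRCm38). Its counts were above 0 in 10 of 17 single-cell wells, with a median of 32.8 CPM and a highest well of 94.8 CPM, and in 3 of 21 wells of nuclei, with a highest well of 8.70 CPM. All 10 wells lay above the highest nuclear one, and the log2 fold change was 4.18 ± 0.46 (SE, adjusted p = 9.0e-17, edgeR). In shallow single-cell wells a single count could be enough for that, being worth 35.9 CPM in Arc-PMX F1 and 161 CPM in WT-veh F3. The same limit holds for the other members compared with the highest nuclear well below. *Rps28* followed with 3.24 ± 0.46 (adjusted p = 3.8e-10), and its 7 single-cell wells with counts all exceeded the highest well of nuclei, 14.9 CPM. *Rps3*, which lines the channel through which mRNA enters, reached a median of 56.1 CPM and a highest well of 167 CPM in single cells. In nuclei its median was 0 and its highest well 46.7 CPM, and 11 of 17 wells lay above that (log2 fold change 3.05 ± 0.35, adjusted p = 5.8e-16). *Rps12* (3.01 ± 0.30, adjusted p = 1.9e-20) and *Rps23*, a protein of the decoding centre (2.91 ± 0.38, adjusted p = 2.5e-12), completed the small-subunit genes among the 10 largest differences. *Rpsa*, also known as the laminin receptor, had a median of 18.7 and a highest well of 114 CPM in single cells and of 0 and 30.4 CPM in nuclei (2.31 ± 0.35, adjusted p = 4.9e-09).

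In the large subunit, *Rpl32* gave 3.20 ± 0.40 (adjusted p = 2.9e-13), and 11 of its 17 wells exceeded the highest well of nuclei, 12.6 CPM. In shallow wells a single count was again enough for that. *Rpl36* gave 3.03 ± 0.51 (adjusted p = 4.0e-07; 2.02 and adjusted p = 0.057 without Arc-veh F1 and M2) and *Rpl37a* 2.89 ± 0.40 (adjusted p = 8.3e-11). *Rpl21* was the member with the most counts in single-cell microglia, 302 of 7289. Its median was 122 CPM and its highest well 230 CPM, against 12.6 and 65.3 CPM in nuclei, and 13 of 17 wells lay above the nuclei (2.89 ± 0.28, adjusted p = 1.3e-22). The medians of *Rpl32*, *Rpl36* and *Rpl37a* in nuclei were 0, so their fold changes rest on small counts.

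All 3 genes of the P-stalk were called higher with all wells in the fit. Without Arc-veh F1 and M2, single-cell microglia held only 8 counts of *Rplp0*, beside 29 of *Rplp1* and 24 of *Rplp2*. *Rplp1*, which with *Rplp2* forms the pair of acidic proteins of the stalk, had a median of 45.9 CPM and a highest well of 334 CPM in single cells, and a median of 0 and a highest well of 34.8 CPM in nuclei (3.16 ± 0.39, adjusted p = 8.6e-14). *Rplp2* gave 2.27 ± 0.33 (adjusted p = 2.0e-09) and *Rplp0*, which anchors the pair to the ribosome, 2.08 ± 0.41 (adjusted p = 2.8e-05).

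The other 11 core genes were not called. *Rpl10a* (chr17:28328471-28331033) had a median of 0 and a highest well of 86.1 CPM in single cells, and a median of 29.2 CPM in nuclei, where 15 of 21 wells held counts. *Rpl3*, a protein of the peptidyl transferase centre (chr15:80077791-80091868), had medians of 12.1 and 33.2 CPM. In both the median over wells was higher in nuclei, and the log2 fold changes were -0.04 ± 0.32 and 0.15 ± 0.29 (adjusted p = 0.97 and 0.79, edgeR). *Rpl15* was hardly seen, with 4 counts in single cells and 3 in nuclei. *Rps6*, the substrate of the S6 kinases, had 15 and 13 counts (0.55 ± 0.50), *Rpl29* 10 and 7 (0.33 ± 0.54) and *Rpl35* 18 and 10 (0.75 ± 0.49). The remaining members, *Rpl27a*, *Rpl10*, *Rps15a*, *Rps27a* and *Rpl27*, lay between 0.80 and 1.46, and *Rpl27* (adjusted p = 0.054) and *Rps15a* (adjusted p = 0.056) were just outside the threshold.

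The 10 S6 kinases and relatives and *Rps19bp1*, which share symbols but not function, differed from this. None of the 11 was called by edgeR, and 3 (*Rps6ka1*, *Rps6ka3* and *Rps6kb2*) had an unadjusted p under 0.05, against 3830 of 19532 genes. The log2 fold changes of the 11 ran from -0.51 in *Rps6ka3* to 0.94 in *Rps6kb2*. Their genes are long, with a median span of 89568 bases for the kinases against 3289 bases for the core genes (828 to 31449). Pooled over all cell types, the 11 genes held 193853 counts in nuclei and 3443 in single cells, a ratio of 56.3. The core genes held 97978 and 12499, a ratio of 7.84. These ratios are not scaled to depth or cell type: neuronal nuclei alone held 251152225 counts of all genes, and single-cell microglia 1769077. Alone, they cannot show an excess of the 11 genes in nuclei. In microglia the 11 made up a median of 0.0871% of counts in single-cell wells and 0.114% in wells of nuclei, with overlapping ranges. These shares were not tested.

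Gene span went with the difference between preparations over all genes, so members were read beside genes of like span with a mean log2 CPM of at least 5. Below 3 kb, 26 of 31 members (83.9%) were higher in single cells, against 43 of 152 other genes (28.3%), with median log2 fold changes of 2.07 and 0.64. Between 3 and 10 kb, 38 of 42 members (90.5%) and 146 of 1203 other genes (12.1%) were higher, with medians of 2.13 and 0.19. Above 100 kb, 64 of 1938 other genes (3.30%) were higher and their median was -0.22. Short genes were thus shifted as a class and the members lay further out. Among the 77 members the fold change followed neither span (Spearman -0.06) nor exonic length (-0.15) nor intronic share (0.09), and followed mean log2 CPM weakly (0.37); these correlations are across genes that share libraries. Members with the tract in the window had a median of 1.92 (27 of 33 higher) and those without it 2.18 (22 of 24 higher).

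**Figure D3:**
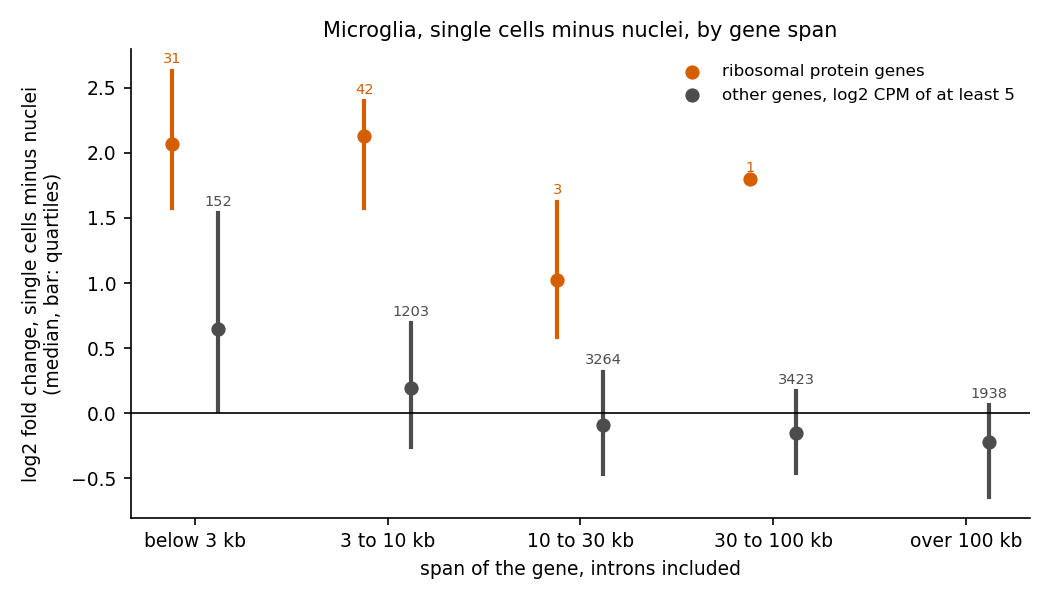
Median log2 fold change of microglia, single cells minus nuclei (points; bars span the quartiles), in 5 classes of gene span, for ribosomal protein genes (orange) and for other genes with a mean log2 CPM of at least 5 (grey), with the number of genes above each bar. Members sit at 2.07 and 2.13 in the 2 shortest classes, where other genes sit at 0.64 and 0.19.

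Other genes of the translation machinery split. *Fau*, whose product is cut into a small-subunit protein, was higher in single-cell microglia (2.79 ± 0.32, adjusted p = 2.3e-15, edgeR), while *Rack1* was not called (0.67 ± 0.32, adjusted p = 0.21). Of 10 elongation factors and other mRNAs known to carry the tract, 1 of the 6 with a RefSeq start held it in the window (16.7%) and 0 at the start. Of the 10, 6 were higher and 0 lower: *Eef1b2* (2.36), *Eef1a1* (1.61) and *Eef2* (1.36) of elongation, *Tpt1* (1.61), *Pabpc1*, the poly(A)-binding protein (1.3), and *Npm1*, a chaperone of ribosome assembly (1.19). Initiation factors gave 8 higher and 4 lower of 55 tested. Genes of ribosome assembly gave 2 higher of 19 (*Ncl* and *Ubtf*). Mitochondrial ribosomal proteins, made for another ribosome, gave 1 higher and 1 lower of 79, with a median of -0.22, and snoRNA host genes 0 higher and 2 lower of 14.

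Measures of RNA quality moved with the preparation as well. Mitochondrial genes were higher in single cells for 9 of 11 genes tested (median 4.24), and their share was 0.199% to 4.4% in single-cell wells and 0.0470% to 0.193% in nuclei. The cell filters allowed under 10% mitochondrial counts in single cells and under 1% in nuclei, so these shares were bounded differently. Transcripts linked to ribosomal RNA were higher for 5 of 6, with shares of 1.74% to 15.8% and 0.456% to 5.69%. Markers of other cells moved both ways: the 8 neuronal markers summed to a median of 161 CPM in single-cell microglia and 483 CPM in nuclei, and the 7 astrocyte markers to 970 and 362 CPM. With the mitochondrial and ribosomal RNA-linked transcripts removed from the fit, 66 of 77 members were called. Each member is tested on its own counts, so removing other genes acts mainly through the scaling. This cannot test the part of RNA quality, which was not tested. The part of RNA carried over from other cells in the result was not tested.

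In endothelial cells, 16 of 77 members were higher in single cells and 0 lower, against 2.35% of 17775 genes that were higher, with a median log2 fold change of 1.39 (all genes: -0.27). The largest were *Rplp2* (3.31 ± 0.77, adjusted p = 3.9e-04, edgeR), *Rpl18* (3.24 ± 0.83), *Rpl8* (3.18 ± 0.77), *Rps3* (3.08 ± 0.78) and *Rps23* (3.04 ± 0.67). In *Rplp2*, 17 counts in single cells faced 2 in nuclei, with medians of 23.7 and 0 CPM. In pericytes, 7 of 76 members were higher and 0 lower, against 3.34% of 16188 genes, with a median of 1.74 (all genes: -0.10). They were led by *Rplp1* (3.71 ± 0.99, adjusted p = 4.1e-03), *Rps3* (3.48 ± 1.09), *Rps21* (3.48 ± 1.02), *Rpl12* (3.28 ± 0.99) and *Rplp2* (2.92, adjusted p = 0.046), and *Rplp1*, *Rps21* and *Rps3* had 0 counts in the 13 wells of nuclei, so that these fits depend on how zeros are handled.

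Both counts leaned on single wells. Without single-cell Arc-veh F1, 3 members were called in endothelial cells and 1 in pericytes, and the members' medians were 0.30 and 0.99. *Rplp2* in pericytes then gave 0.41 (adjusted p = 0.87, edgeR), and it lost its call in 13 of 29 alternatives. Endothelial cells gave 9 without single-cell Arc-PMX M1, 8 without nuclear Arc-veh F2 and 9 without nuclear Arc-veh F3, and at most 22 with 1 well left out. Pericytes gave 4 without single-cell Arc-PMX F2 or nuclear Arc-PMX F1, 3 without nuclear Arc-veh F2, and 12 without single-cell WT-veh F1. DESeq2 called 4 in endothelial cells and 0 in pericytes. Naming clusters by their highest marker score raised the counts to 39 in endothelial cells and 15 in pericytes, and pericytes gave 17 without the sex term. The calls over all genes, in either direction, rose as well. By marker score they were 4413 of 20828 in endothelial cells and 3151 of 19773 in pericytes. Without the sex term they were 1433 of 16188 in pericytes. In the main fits they were 1639 of 17775 and 1223 of 16188. Microglial markers moved with the members. The 10 markers summed to 592 to 3588 CPM in single-cell endothelial wells and 0 to 346 CPM in nuclei. In pericytes they summed to 1490 to 5238 CPM and 0 to 134 CPM. *C1qa*, *C1qb* and *Tyrobp* were at 0 in nuclei of both types. Among the kinases, *Rps6ka1* was higher in single cells of both types (1.93 and 4.36) and *Rps6ka2* lower in endothelial cells (-2.39). Endothelial nuclei in turn held more of other markers: the 8 neuronal markers had a median of 3688 CPM there, 211 CPM in single cells and 7926 CPM in neurons, and the 6 oligodendrocyte markers 1064 and 71.1 CPM in endothelial nuclei and single cells. In pericytes the neuronal markers had medians of 1083 CPM in nuclei and 276 CPM in single cells. Pericyte markers had medians of 13284 CPM in pericyte nuclei and 4329 CPM in their single cells. Microglial markers had 51.9 and 3736 CPM there, beside 7646 CPM in single-cell microglia, and endothelial markers 204 and 2709 CPM. The name pericyte is thus less sure for the single cells, which may be mixed. The part of RNA of other cells in these differences was not tested.

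Across the groups, single-cell microglia of Arc-veh mice had the highest share of ribosomal protein counts. The wells gave 0.127% (F2), 0.210% (F3) and 0.186% (M2) in WT-veh, and 0.0563%, 0.0827% and 0.0935% in WT-PMX. They gave 0.602% (F1), 0.134% (F2), 0.301% (F3), 0.462% (M2) and 0.339% (M3) in Arc-veh. In Arc-PMX the lowest of 6 wells was 0.114%, the median 0.179% and the highest 0.398%. The named microglia of the groups, pooled over wells, sat in different clusters. These counts of cells were not split by well, and Arc-veh F1 and M2 held 53.5% of all single-cell microglia. The clusters with the highest core shares, 0.763%, 0.538% and 0.413%, held 314, 289 and 240 cells of Arc-veh, 32, 70 and 26 of Arc-PMX, 3, 2 and 4 of WT-veh and 0, 0 and 1 of WT-PMX. A cluster at 0.166% held 48 cells of Arc-veh, 211 of Arc-PMX, 26 of WT-veh and 3 of WT-PMX, one at 0.129% held 69, 115, 78 and 121, and one at 0.269% held 75, 79, 6 and 10. All WT-PMX wells lay below all WT-veh wells, Arc-veh and Arc-PMX overlapped, and no test was run on the share. The WT-veh wells together held 105 core counts, so a single count decided much: in WT-veh F3, with 6197 counts in all, 1 count was worth 161 CPM.

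Member by member, the filter on low counts left 775 genes and 0 members. Without it, PMX205 in Arctic mice went with 7 of 77 core genes lower and 0 higher (Arc-PMX minus Arc-veh), against 0.193% of 17061 genes called and 0.17% lower. The median log2 fold change of members was -1.53 (all genes: -0.21), and all 77 were negative. Pooled over wells, the 2 groups drew their microglia mostly from different clusters, as given above. That makeup was not split by well. The lower genes included *Rplp0*, *Rpl31*, *Rps2*, *Rps23*, *Rpl5*, which binds the 5S RNA, and *Rps24*.

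*Rplp0* (chr5:115559467-115563727) was at 56.8 CPM in Arc-veh F1, 0 in F2, 83.6 in F3, 61.2 in M2 and 143 in M3. In Arc-PMX it was at 35.9 CPM in F1, a single count, and at 0 in the other 5 wells. So 4 of 5 untreated wells lay above every treated well, and the log2 fold change was -4.34 ± 0.80 (adjusted p = 2.3e-04, edgeR). The value of untreated F3 was a single count as well. *Rpl31* was at 68.7, 0, 0, 29.0 and 47.8 CPM in the Arc-veh wells in the same order, and at 35.9 CPM in Arc-PMX F1, 9.35 CPM in M1 and 0 in the other 4 wells (-3.41 ± 0.74, adjusted p = 5.8e-03). Its Arc-veh wells F2 and F3 were at 0, as were several treated wells, so the groups overlapped. *Rps2* was at 60.8, 0, 0, 48.3 and 0 CPM, and in Arc-PMX at 35.9 CPM in F1, 12.1 in F2, 9.35 in M1 and 0 in the other 3 wells (-2.61 ± 0.65, adjusted p = 0.036). Its groups overlapped, and without Arc-veh F1 and M2 the log2 fold change was 2.12 (adjusted p = 0.87, edgeR). *Rps23* was at 166, 0, 83.6, 54.7 and 191 CPM, and between 0 and 35.9 CPM in Arc-PMX (-2.41 ± 0.51, adjusted p = 3.6e-03). *Rpl5* was at 149, 89.4, 167, 86.9 and 95.6 CPM, above every Arc-PMX well, the highest of which held 42.5 CPM (-2.11 ± 0.48, adjusted p = 0.010). A single count was worth 89.4 CPM in Arc-veh F2, 83.6 CPM in F3 and 47.8 CPM in M3. Any count in these wells would therefore pass 42.5 CPM. *Rps24* gave -1.80 ± 0.45 (adjusted p = 0.037).

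These calls rest on the 2 deep Arc-veh wells. Without F1 and M2, 0 of the members were called by edgeR and the median turned to 0.60. Without F1 alone 0 were called, without M2 alone 2, without Arc-PMX F2 1, and without Arc-PMX F3 or M1 3, whereas leaving out Arc-veh F2, F3 or M3 gave 14 to 16. Cells named by their highest marker score gave 0 calls, the unnamed clusters added gave 2, and DESeq2 gave 6. At an unadjusted p under 0.05 in edgeR's fit stood 58 of 77, against 1375 of 17061 genes. The mitochondrial genes moved in the same comparison, with 2 of 10 lower and a median of -1.34.

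**Figure D4:**
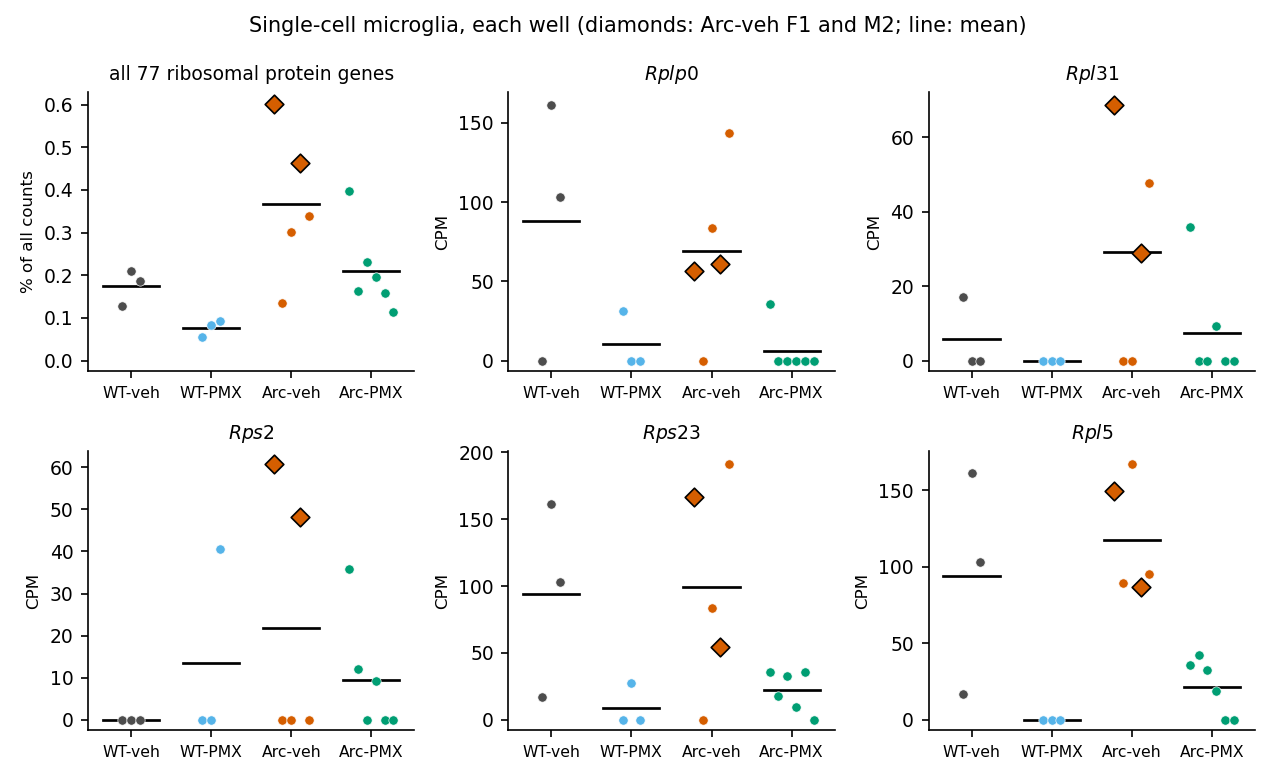
Single-cell microglia by group, 1 point per well: the share of counts from all 77 core genes (percent) and the CPM of 5 members that were called lower in Arc-PMX than in Arc-veh (*Rplp0*, *Rpl31*, *Rps2*, *Rps23* and *Rpl5*); lines are means and diamonds mark Arc-veh F1 and M2. Arc-veh wells spread from 0.134% to 0.602%, and many wells of single genes lie at 0.

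In Arc-veh minus WT-veh, 0 of 77 members were called by edgeR, against 0.0176% of genes, and DESeq2 called 0. In edgeR 47 of 77 had an unadjusted p under 0.05, against 1026 of 17061 genes. The members' median was 2.56 and that of all genes 0.85 and 75 of 77 members were positive, so the members are to be read against that shift. Among the smallest p-values were those of *Rps4x* (6.62 ± 1.71, adjusted p = 0.19) and *Rps29* (6.28 ± 1.78, adjusted p = 0.26), both at 0 in every WT-veh well, so that the fitted sizes mean little. Without WT-veh F2 the count stayed 0 and the median was 5.17, and without Arc-veh F1 and M2 it was 0 with a median of 0.32. Leaving out Arc-veh F3 gave 1 call. Clustering without the members gave 12 higher and the unnamed clusters added gave 9. More genes were called in these settings as well, 86 of 17572 and 150 of 19401. In WT-PMX minus WT-veh, 0 members were called by edgeR (DESeq2: 0), with 0% of all genes called, and 0 were called without WT-veh F2. At an unadjusted p under 0.05 in edgeR stood 0 members, against 477 of 17061 genes. The test of whether the effect of PMX205 differed between genotypes gave 0 calls (DESeq2: 0) against 0% of genes, and 0 calls without WT-veh F2 (median -1.70, against -1.04 with it). With all wells, 3 members had an unadjusted p under 0.05 in edgeR, against 580 of 17061 genes.

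In nuclei the groups could be compared with far more counts, 73697 of the members in neurons alone. The share of core genes in neurons was 0.0304% ± 0.0021 in WT-veh, 0.0312% ± 0.0054 in WT-PMX, 0.0297% ± 0.0020 in Arc-veh and 0.0299% ± 0.0051 in Arc-PMX (SD, n = 6 each). The groups overlapped. With the filter, 76 of 77 members were tested. None was called by edgeR in Arc-veh minus WT-veh (0.0402% of 14921 genes called), in Arc-PMX minus Arc-veh (0%), in WT-PMX minus WT-veh (0%) or in the difference of the PMX205 effects (0%). DESeq2 also called 0 in each. In edgeR 2, 0, 1 and 2 of the 76 members had an unadjusted p under 0.05, against 1231, 283, 489 and 418 of 14921 genes. The median over members was 0.05, -0.05, 0.00 and -0.04.

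In neurons of Arctic mice *Rpl7* was nearest to a call. It had a lowest, median and highest well of 2.43, 3.25 and 4.47 CPM in WT-veh and of 1.31, 2.08 and 2.84 CPM in Arc-veh (-0.58 ± 0.22, adjusted p = 0.54, edgeR). The ranges overlapped, and *Rpl6*, the member with the most counts in neurons, gave -0.35 ± 0.18 (adjusted p = 0.63). With PMX205, *Rpl8* was the first of the Arctic neurons (0.52 ± 0.25) and *Rps26* of the wild-type neurons (-0.54 ± 0.23), and neither was called.

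Nuclei of glia gave the same count of 0. The filter kept 1 member each in astrocytes and oligodendrocytes and 0 in OPCs and microglia. All 77 members together had 4303 counts in astrocytes, 2206 in oligodendrocytes, 1207 in OPCs and 1509 in microglia. With so few counts per gene, small differences could hardly be called. Without the filter, 0 of 77 members were called by edgeR in the 16 comparisons of these 4 types. DESeq2 called 0 among the members that its fits with the filter held. In each, 1 to 7 members had an unadjusted p under 0.05 in edgeR. Over all genes it was 631 to 2775 of 23462 in astrocytes and 599 to 1135 of 19769 in oligodendrocytes. In OPCs it was 588 to 856 of 18912 and in microglia 545 to 1611 of 17834. In Arc-veh minus WT-veh the members' medians were 0.13, -0.05, 0.21 and 1.01 in this order of types (all genes: 0.02, 0.05, 0.03 and 0.63). The background was not empty everywhere: 4.18% of 23462 genes were called in astrocytes of Arc-veh against WT-veh, 1.47% in microglia, 0.683% in oligodendrocytes and 0.222% in OPCs. With PMX205 it was low: for Arc-PMX minus Arc-veh 0.0256% of genes were called in astrocytes, 0.0354% in oligodendrocytes, 0.0212% in OPCs and 0.0112% in microglia. For WT-PMX minus WT-veh the shares were 0.0256%, 0.0101%, 0.0159% and 0%, and for the difference of the PMX205 effects 0.017%, 0.0152%, 0.0159% and 0.00561%, in the same order of types. The share of core genes in microglial nuclei was 0.0668% ± 0.0125 over 4 wells of WT-veh and 0.0816% ± 0.0121 over 6 of Arc-veh. With PMX205 it was 0.0598% ± 0.0172 over 5 wild-type wells and 0.0884% ± 0.0255 over 6 Arctic wells. The mean was lower in WT-veh than in Arc-veh in both preparations, and the ranges overlapped in both. In nuclei with PMX205 the mean was lower in wild-type and higher in Arctic wells, each by less than 1 SD, while in single cells it was lower in both genotypes. No test was run on these shares.

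The makeup of the ribosomal protein counts, each gene's part of the 77-gene sum, was compared by rank. Spearman correlation over the 77 genes was 0.900 between neurons and astrocytes and 0.763 between neurons and microglial nuclei. It was 0.639 between microglia and OPCs, the lowest among the 5 nuclear types. These 2 types also had the fewest core counts, 1509 and 1207, against 73697 in neurons. The part of counting error in the lower value was not tested. Between microglial nuclei and single-cell microglia the correlation was 0.616, and between single-cell microglia and neurons 0.403. Without Arc-veh F1 and M2 these were 0.634 and 0.552. Depth and gene length are shared by these points. In neurons the most counts fell on *Rpl6* (3275), *Rpl4* (2940), *Rpl11* (2463), *Rpl5* (2387) and *Rpl3* (2310) of 73697, and the fewest on *Rpl39* (197), *Rplp1* (218) and *Rps16* (281). In single-cell microglia *Rpl21* (302), *Rpl4* (262), *Rps12* (243), *Rpl23* (239) and *Rpl13a* (225) led, and *Rpl15* (4), *Rpl29* (10) and *Rps6* (15) came last. Without Arc-veh F1 and M2, *Rpl15* (0), *Rpl29* (1) and *Rpl35* (2) had the fewest of 1295 counts, and *Rps6* had 5. *Rpl4*, which lines the exit tunnel, was near the top in both. Per kilobase of exon, the highest mean level in single-cell microglia was that of *Rplp1* (123 CPM per kb), ahead of *Rps15* (60.8) and *Rpl36* (54.0), and in neurons that of *Rps15* (6.32 CPM per kb).

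**Figure D5:**
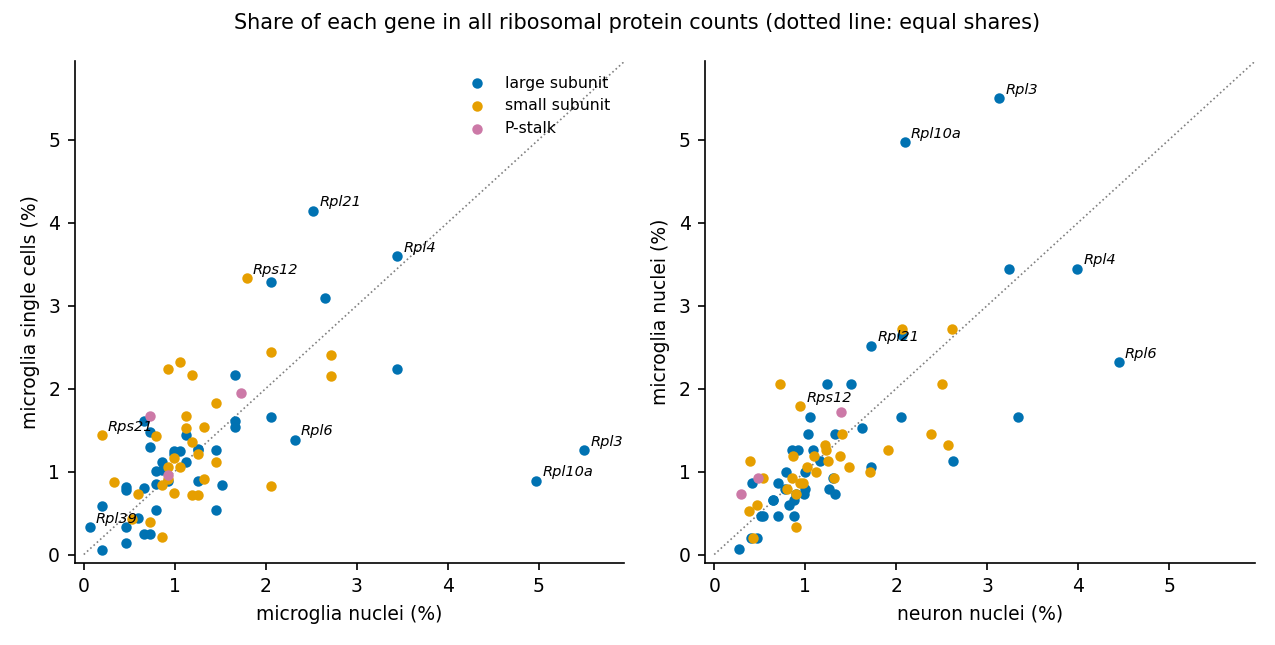
Part of each core gene in all ribosomal protein counts (percent), in microglial single cells against microglial nuclei (left) and in microglial nuclei against neuronal nuclei (right), coloured by subunit, with a dotted line at equal parts. Rpl3 and Rpl10a lie far below the line on the left and Rps21 above it.

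The paralogues differed from one another. *Rpl7l1*, a relative of *Rpl7*, was above its partner in nuclei, with mean levels of 7.41 against 2.59 CPM in neurons and 20.2 against 3.96 CPM in microglia. It made up 35.2% of the counts of the pair in single-cell microglia (32 counts, against 59 of *Rpl7*), 60.0% there without Arc-veh F1 and M2 (12 of 20 counts), 86.0% in microglial nuclei (43 of 50) and 74.2% in neurons. Its own fold change between preparations was -0.10 ± 0.37 (adjusted p = 0.90, edgeR). *Rpl22l1* made up 6.25% of its pair in single-cell microglia (7 counts, all in Arc-veh F1 and M2), 24.2% in neurons and 39.7% in astrocytes. *Rpl3l*, known from muscle, had 37 counts in astrocytes, 21.1% of its pair, 97 in neurons, 4.03%, and 0 in microglia. *Rpl10l*, known from testis, had 0 counts in each of these types. *Rps27l* had 11 counts in single-cell microglia and 0 in their nuclei, which against a floor of 3 counts over the group is at least 3.92-fold higher (adjusted p = 2.1e-03, edgeR). Only 2 of the 11 counts lay outside Arc-veh F1 and M2, which is under that floor, and without those wells it was not called (adjusted p = 0.30). *Rpl36al* was higher as well (2.19 ± 0.56, adjusted p = 2.8e-03), though not called without them (1.57 ± 0.73, adjusted p = 0.21). *Rpl37rt*, a copy of *Rpl37*, gave 2.03 ± 0.45 (adjusted p = 2.7e-04), and 1.14 ± 0.57 (adjusted p = 0.26) without those wells. Reads of near-identical copies may have been split or dropped in counting, so these parts are uncertain.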

How the data were processed

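Hippocampal single cells and nuclei were profiled by split-pool RNA-seq. The authors aligned reads to mm10 with the split-pipe software of Parse Biosciences and deposited raw transcript counts per gene and barcode for 7 sublibraries, unfiltered and not normalised. Here, barcodes with more than 300 and fewer than 50000 transcripts were kept, with under 10% mitochondrial counts and more than 300 genes (single cells) or under 1% and more than 400 genes (nuclei), and doublet scores above 0.25 were removed. Cells were clustered (scanpy 1.11.5, leidenalg 0.10.2) and named by markers. Counts were summed per first-round well and cell type, the well being the replicate, and sums of fewer than 10 cells were left out. Differences were tested with edgeR 4.0.16 (R 4.3.3; TMM scaling, quasi-likelihood, sex in the model, all 4 groups in one fit, Benjamini-Hochberg adjustment over all genes tested). SE was the log2 fold change divided by the square root of F.

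The planned filter (filterByExpr, minimum count 10) left almost no member outside neuronal nuclei, so a fit without it gives the values printed for other types. DESeq2 1.42.0, other scalings, filters, cell names, a replicate block and leaving out wells were tried, and the code was tested on simulated data. Members, gene lists, tests and naming rules were chosen with earlier results of these data known. Named genes were the 5 called members (10 for microglia between preparations) with the largest log2 fold change in each direction at a mean log2 CPM of at least 5, the 3 smallest p-values where fewer than 3 were called, the 5 members with the most and the fewest counts, the P-stalk, *Rpsa*, paralogue pairs and kinases; the genes not called between preparations, *Rpl5*, *Rps24* and *Rpl37rt* were named after their values were seen. Gene spans came from GENCODE on GRCm38 and start sites from RefSeq. Total counts per cell type ranged widely, and shares carry counting error that few counts make large. A few genes that these rules would name are not reported here.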

Additional observations from a re-analysis of the deposited data

Results flagged for a closer look

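In 75 sets of 4 to 10 wells, the highest or lowest well was compared with its nearest neighbour by Dixon's test. A well stood apart in 7 sets (9.33%), where chance gives about 1 in 20 for normally distributed values. Several sets are CPM made of 0 or a few counts, and the genes were picked by their calls or p-values. The share can therefore not be judged against that rate. In Arc-PMX single-cell microglia, well F1 stood apart for *Rplp0* (35.9 CPM, next 0), *Rpl31* (35.9 CPM, next 9.35) and *Rps2* (35.9 CPM, next 12.1); in this well 35.9 CPM is 1 count of 27856. In neuronal nuclei, single wells stood apart for *Rpl27* in WT-veh (1.97 CPM, next 1.28), and in Arc-PMX for *Rpl7* (3.79 CPM, next 2.27) and *Rpl8* (4.16 CPM, next 2.31). In pericyte nuclei of Arc-veh, the highest well held 0.0672% of counts in core members, and the next 0.0518%.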

How the results depend on the processing

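Counts of called members changed with the filter on low counts. With it, 0 members were called between preparations and in single-cell microglia, since none was tested. Without it, 66 (microglia), 16 (endothelial cells) and 7 (pericytes) were called between preparations and 7 in Arc-PMX minus Arc-veh. A minimum count of 1 left 13 members to test in microglia and 5 in endothelial cells between preparations, and 60 in Arc-PMX minus Arc-veh. Of these, 11, 2 and 16 were called. With that minimum, 21.8% of 6220, 21.2% of 5867 and 1.09% of 6765 genes were called in either direction. With the filter, stricter cells gave 2 for Arc-PMX minus Arc-veh (166 of 2400 genes called). Arc wells only gave 1 for microglia between preparations (714 of 2292 genes called).

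Without the filter, Arc-PMX minus Arc-veh gave 12 without the sex term, 15 with stricter cells and 2 with unnamed clusters added. In these settings 59 of 17061, 110 of 15981 and 26 of 19401 genes were called. It gave 0 with names by marker score or without Arc-veh F1 and M2, and leaving out 1 well gave 0 to 16. Arc-veh minus WT-veh gave 12 with clustering without members (86 of 17572 genes called) and 9 with unnamed clusters added (150 of 19401). It gave 0 to 1 with 1 well left out. Microglia between preparations gave 27 without Arc-veh F1 and M2 (1273 of 18719 genes called), and 51 to 68 with 1 well left out. Endothelial cells gave 4 with DESeq2 and 39 with names by marker score (3 to 22 with 1 well left out). Pericytes gave 0 with DESeq2, 17 without the sex term, 15 with names by marker score, 4 with clustering without members and 2 with stricter cells (1 to 12). With names by marker score, 4413 of 20828 genes were called in endothelial cells and 3151 of 19773 in pericytes. In astrocyte nuclei, Arc-veh minus WT-veh gave 0 to 1. The mean share of core members in single-cell microglia, 0.227%, was 0.412% with wells pooled. The causes were not tested.

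With the replicate number as a block, Arc-PMX minus Arc-veh gave 0 calls, endothelial cells 9, pericytes 0 and microglia 63. The numbers did not pair the wells: same-numbered wells correlated above 0.1 in 10 of 36 pairs of neuronal nuclei, 4 of 28 of microglial nuclei and 2 of 13 of single-cell microglia.

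Signs turned for genes that were not called or lost their call: *Rpl6* in Arc-veh minus WT-veh neurons (0.022 in dentate granule nuclei), *Rps2* in Arc-PMX minus Arc-veh (2.12 without F1 and M2), *Rps21* in WT-PMX minus WT-veh (0.22 with stricter cells, and from -4.96 without WT-veh M2 to 0.014 without WT-veh F2 when 1 well was left out), *Rpl5* in the same comparison (3.44 with names by marker score), and *Rps4x* in the difference of PMX205 effects (0.029 without F1 and M2). Depth limits all single-cell comparisons of wild-type wells, where WT-veh and WT-PMX held 105 and 71 core counts.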

Other observations

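The ratio of small-subunit to large-subunit counts, pooled over wells, was 0.777 in single-cell microglia, 0.622 in microglial nuclei and 0.646 in neuronal nuclei. In the other types with both preparations the ratio was lower in single cells, partly on few counts. Single cells and nuclei gave 0.589 and 0.865 in endothelial cells and 0.799 and 0.880 in pericytes. They gave 0.409 and 0.716 in astrocytes and 0.769 and 0.849 in ependymal or choroid plexus cells. Single cells held only 32 core counts in astrocytes and 97 in ependymal or choroid plexus cells, and pericyte nuclei held 159. The ratios were not tested, and their counting error is large. *Rps21* made up 1.44% of the core counts in single-cell microglia and 0.199% in their nuclei, where it had 3 counts, and *Rpl10a* made up 0.892% and 4.97%. Without Arc-veh F1 and M2 the single-cell values were 1.47% and 1.70%.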
